A study of Mus musculus with 7 samples.

Results

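The heterotrimeric G proteins and the regulators of G protein signalling (RGS) were compared between young adult and late embryonic mouse cerebral cortex. Members were all rows of the gene table whose symbol was Rgs with a number, Gna with any ending, Gnb1 to Gnb5, or Gng with a number. This rule gave 51 of 36666 gene rows, made up of 16 alpha subunits, 5 beta subunits, 10 gamma subunits and 20 RGS genes. mRNA had been sequenced from 3 young adult and 4 embryonic day 17 cortices of C57BL/6 mice. Neither stage carries a treatment or an engineered allele in the labels, which give the adult stage without an age in weeks. The labels do not say that each sample came from a separate animal, so the tests measure how much these samples vary, and that spread may be technical.

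A heterotrimeric G protein carries a signal from a receptor in the membrane to enzymes and channels inside the cell. An active receptor makes the alpha subunit swap GDP for GTP, and the alpha subunit and the beta-gamma dimer then act on separate effectors until the alpha subunit hydrolyses its GTP. RGS proteins speed up that hydrolysis and so end the signal sooner, and in the brain they act below receptors for dopamine, serotonin, acetylcholine, opioids and glutamate.

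Between 18444239 and 23606499 reads per sample fell in genes. Levels are reads per 1000000 reads in genes (CPM), recovered from the deposited values. Differences are adult minus embryonic, on the deposited log2-like scale, where 1 is close to 2-fold except at low counts. All 8 markers of cortical excitatory neurons were detected at both stages, with summed levels of 1701 to 1833 CPM in adult and 1894 to 2016 CPM in embryonic samples. The 6 progenitor markers summed to 61.1 to 93.5 CPM in adult and 448 to 630.3 CPM in embryonic samples, and the 6 oligodendrocyte markers to 4021 to 7235 CPM in adult and 59.1 to 65.5 CPM in embryonic samples. In such bulk tissue, fewer cells of a type and less RNA per cell cannot be told apart.

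Most RGS and gamma subunit genes were higher in adult cortex, while alpha and beta subunit genes moved in both directions. Of the 50 members tested, 30 were higher and 8 lower in adult cortex and 12 were not called (limma, adjusted p under 0.05 over all 22828 genes tested). Over all genes, 35.8% were called higher, 33.9% lower and 69.7% in either direction, so a call by itself sets few genes apart in this comparison. On the deposited scale, all 3 adult values lay above all 4 embryonic values in 30 members and below them in 11, and over all genes in 35.7% and 33.2%, or 68.9% in either direction. The median difference was 1.599 for the 20 RGS genes, 1.16 for the 10 gamma genes, -0.35 for the 5 beta genes and -0.07 for the 15 alpha genes tested, beside 0.03 for all genes. Against a null of 2-fold, a test added after the data were seen, 16 members were higher and 2 lower, where 14% of all genes were higher and 8.47% lower. Those 16 were 9 RGS genes, 5 gamma genes, Gnb5 and Gna15, and the 2 were Gng2 and Gnai3. Gnat3, the alpha subunit of taste cells, was listed at 0 reads in all 7 samples and was not tested.

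**Figure D1:**
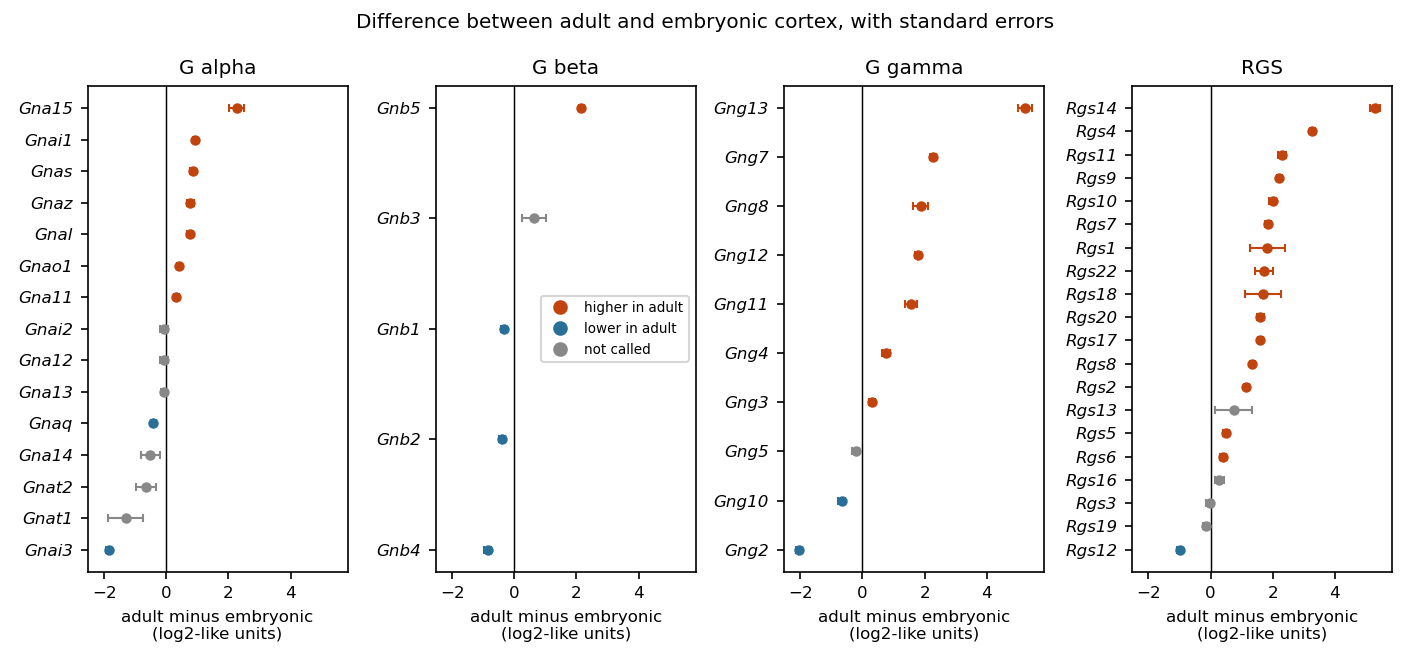
Adult minus embryonic difference of each tested member on the deposited log2-like scale (x axis), with limma standard errors as bars, in one panel per gene group. Points run from Rgs14 at 5.29 and Gng13 at 5.24 on the right to Gng2 at -2.06 and Gnai3 at -1.86 on the left, and the colour gives the call.

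Rgs4, Gng13, Gng2 and Gnai3 show the range of these changes, and their promoters are printed to set genes that moved in opposite directions side by side. Rgs4, a small RGS protein that acts on Gi/o and Gq alpha subunits, had 367, 389 and 399 CPM in adult samples and 41.9, 37.2, 44.1 and 42.4 CPM in embryonic samples. Gng13, a gamma subunit known from taste, olfactory and retinal cells, had 286, 291 and 289 reads in adult samples and 1, 3, 4 and 3 reads in embryonic samples. In both genes every adult value was far above every embryonic value. Gng2, a widely used gamma subunit of neurons, had 189, 145 and 147 CPM in adult samples and 706, 637, 712 and 781 CPM in embryonic samples. Gnai3, an inhibitory alpha subunit, had 31.1, 36.0 and 30.3 CPM in adult samples and 127, 129, 115 and 138 CPM in embryonic samples. These genes had the opposite order, with no embryonic value near an adult one. Each sequence below is 300 bases around the RefSeq start on GRCm38.p6, printed 5′ to 3′ on the gene's strand, with matches to CANNTG (the E-box), GGGCGG (the GC box) and TATAAA (the TATA box) on either strand in capitals. The windows are chr1:169747593-169747892 on the minus strand for Rgs4, chr17:25716922-25717221 on the plus strand for Gng13, chr14:19976644-19976943 on the minus strand for Gng2 and chr3:108146103-108146402 on the minus strand for Gnai3.
Rgs4: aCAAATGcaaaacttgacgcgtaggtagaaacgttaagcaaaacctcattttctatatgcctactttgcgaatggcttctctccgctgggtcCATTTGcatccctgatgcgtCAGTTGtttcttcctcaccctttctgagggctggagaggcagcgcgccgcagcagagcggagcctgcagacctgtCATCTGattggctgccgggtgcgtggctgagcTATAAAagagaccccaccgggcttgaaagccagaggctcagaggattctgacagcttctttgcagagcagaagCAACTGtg
Gng13: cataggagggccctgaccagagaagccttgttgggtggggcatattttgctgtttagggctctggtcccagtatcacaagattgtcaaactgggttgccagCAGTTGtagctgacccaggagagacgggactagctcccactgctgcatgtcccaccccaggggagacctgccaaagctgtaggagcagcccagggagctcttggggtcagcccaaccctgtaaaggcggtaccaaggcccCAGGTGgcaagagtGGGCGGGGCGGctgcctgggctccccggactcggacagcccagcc
Gng2: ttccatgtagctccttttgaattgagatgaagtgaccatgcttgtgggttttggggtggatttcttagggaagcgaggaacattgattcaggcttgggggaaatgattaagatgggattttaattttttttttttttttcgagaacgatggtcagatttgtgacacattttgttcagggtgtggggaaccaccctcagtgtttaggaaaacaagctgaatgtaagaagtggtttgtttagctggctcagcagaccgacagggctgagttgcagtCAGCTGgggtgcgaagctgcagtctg
Gnai3: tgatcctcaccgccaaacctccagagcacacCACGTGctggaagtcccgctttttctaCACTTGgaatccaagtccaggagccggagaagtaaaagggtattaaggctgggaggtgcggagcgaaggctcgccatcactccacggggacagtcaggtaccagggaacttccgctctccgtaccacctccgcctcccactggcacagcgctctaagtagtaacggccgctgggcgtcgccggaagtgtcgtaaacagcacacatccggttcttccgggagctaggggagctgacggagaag

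The Rgs4 window held 5 E-boxes, a TATA box and 13 CpG dinucleotides. The Gng13 window held 2 E-boxes and 2 GC boxes that overlap each other, with 6 CpG dinucleotides, and RefSeq lists 2 starts for this gene. The Gng2 window held 1 E-box and 5 CpG dinucleotides, and the Gnai3 window 2 E-boxes and 21 CpG dinucleotides. Promoters of 38 of the 51 members were in the RefSeq table. At least 1 E-box was found in 68.4% of these 38 and in 72.1% of all 27025 promoters, a TATA box in 13.2% and 14.2%, and a GC box in 52.6% and 35.9%. The CRE (TGACGTCA) was found in 0% of member promoters and 1.88% of all promoters, its first letters TGACG, which any CRE also holds, in 18.4% of member promoters and 21% of all promoters, an NRF1 motif in 2.63% of member promoters and 0.977% of all promoters, and a MEF2 motif in 0% of member promoters and 3.7% of all promoters. The median number of CpG dinucleotides was 21 in member promoters and 7 in all promoters. These matches are letters in a window and were not tested for a link with the direction of change.

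Alpha subunits decide which effector a receptor reaches. Of 15 alpha genes tested, 7 were higher, 2 lower and 6 not called, and 1 passed the 2-fold test in each direction. The 60% called lay below the 69.7% called over all genes. Of all genes, 14% passed the 2-fold test as higher and 8.47% as lower. Both members of the Gs family, which stimulates adenylyl cyclase, were higher. Gnas, the ubiquitous Gs subunit, had 302, 353 and 285 CPM in adult samples and 177, 198, 189.6 and 171 CPM in embryonic samples (difference 0.85, SE 0.09, limma adjusted p = 1.20e-06). Gnal, the Gs-like subunit of olfactory and striatal neurons, averaged 259 ± 12.4 CPM in adult and 162 ± 16.3 CPM in embryonic cortex (SD, n = 3 and n = 4, as for all means here), a difference of 0.77. The groups did not overlap in either gene. Gnal shares 852 of its 11172 exon bases with Mppe1 on the opposite strand in GENCODE M21. Mppe1 averaged 7.15 ± 0.738 CPM in adult and 1.38 ± 0.285 CPM in embryonic cortex, and whether counting used strand is not known. The 10 listed markers of striatum summed to 1258 to 1514 CPM in adult and 229 to 261 CPM in embryonic samples, all 10 were called higher, and none was at 0 at either stage. Their part in the difference of Gnal was not tested.

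Within the Gi/o family, which inhibits adenylyl cyclase and frees beta-gamma dimers for ion channels, 3 of 7 tested genes were higher and 1 lower. Of all genes, 35.8% were called higher and 33.9% lower. The 57.1% of Gi/o genes called in either direction lay below the 69.7% called over all genes. Gnai1 had 165, 177 and 171 CPM in adult samples and 94.9, 90.8, 95.4 and 101 CPM in embryonic samples (difference 0.92, SE 0.07, limma adjusted p = 4.35e-08). Its paralogue Gnai3 averaged 32.4 ± 3.07 CPM in adult and 127 ± 9.50 CPM in embryonic cortex, 3.92-fold lower in adult cortex (difference -1.86, SE 0.09, limma adjusted p = 2.55e-10). The third paralogue, Gnai2, had 180.3, 252 and 213 CPM in adult samples and 225, 275, 250.2 and 204 CPM in embryonic samples, which overlap, and was not called (difference -0.07, SE 0.12, limma adjusted p = 0.633). The 3 inhibitory paralogues thus gave 3 different results, higher, lower and not called. Gnao1, the Go subunit known as an abundant G protein of brain, averaged 715 ± 19.6 CPM in adult and 569.9 ± 21.1 CPM in embryonic cortex (difference 0.41, SE 0.07, limma adjusted p = 1.05e-04). Gnaz, the Gz subunit, averaged 95.6 ± 16.6 CPM in adult and 58.6 ± 4.18 CPM in embryonic cortex, a difference of 0.77. The photoreceptor subunits Gnat1 and Gnat2 were scarce and not called. Gnat1 had 0 to 0.297 CPM in adult and 0.323 to 0.542 CPM in embryonic samples and was called lower without adult replicate 1 (adjusted p = 0.0371) or adult replicate 2 (adjusted p = 0.00993), and Gnat2 averaged 0.218 ± 0.118 CPM in adult and 0.428 ± 0.0829 CPM in embryonic cortex.

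The Gq family activates phospholipase C beta, and its members did not move together. Gnaq had 254, 251 and 263 CPM in adult samples and 358, 361, 345 and 386 CPM in embryonic samples, and it was lower in adult cortex with no overlap (difference -0.41, SE 0.07, limma adjusted p = 8.47e-05). Gna11, its close relative, averaged 140.2 ± 10.7 CPM in adult and 118 ± 8.28 CPM in embryonic cortex (difference 0.33, SE 0.08, limma adjusted p = 0.0034). The call of Gna11 was lost when every sample was centred on its median (adjusted p = 0.131). Gna15, a Gq-like subunit best known from blood cells, had 1.79, 2.20 and 1.89 CPM in adult samples and 0.271, 0.266, 0.329 and 0.139 CPM in embryonic samples (difference 2.26, SE 0.25, limma adjusted p = 1.61e-06). It is a scarce mRNA at both stages. Of markers of blood cells, Ptprc was higher, at 5.59 ± 1.54 CPM in adult and 0.958 ± 0.140 CPM in embryonic cortex, and Hbb-b1 was lower, at 262, 92.3 and 141 CPM in adult samples and 243 to 370.2 CPM in embryonic samples. Alas2 was not called, and Cd3e and Ppbp were under 0.2 CPM in every sample, with Cd3e at 0 in all embryonic samples. The part of such cells in the difference of Gna15 was not tested. Gna14 was not called, at 0.302 ± 0.0817 CPM in adult and 0.564 ± 0.254 CPM in embryonic cortex. Neither Gna12 nor Gna13, which signal to the cytoskeleton, was called, and Gna13 averaged 66.6 ± 0.972 CPM in adult and 75.0 ± 6.58 CPM in embryonic cortex. Adult replicate 2 had the highest adult CPM in 10 of 15 alpha genes, adult replicate 1 in 0 and adult replicate 3 in 5. Over all 50 members tested, adult replicate 2 was highest in 24, adult replicate 1 in 10 and adult replicate 3 in 16. Adult replicate 2 also had 7235 CPM of oligodendrocyte markers beside 5043 and 4021 CPM in adult replicates 1 and 3. The part of that difference in the alpha values was not tested. Gna12 had 102, 154 and 98.5 CPM in adult samples and 118 to 144 CPM in embryonic samples, and without adult replicate 2 it was called lower (difference -0.28, adjusted p = 0.0172).

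**Figure D2:**
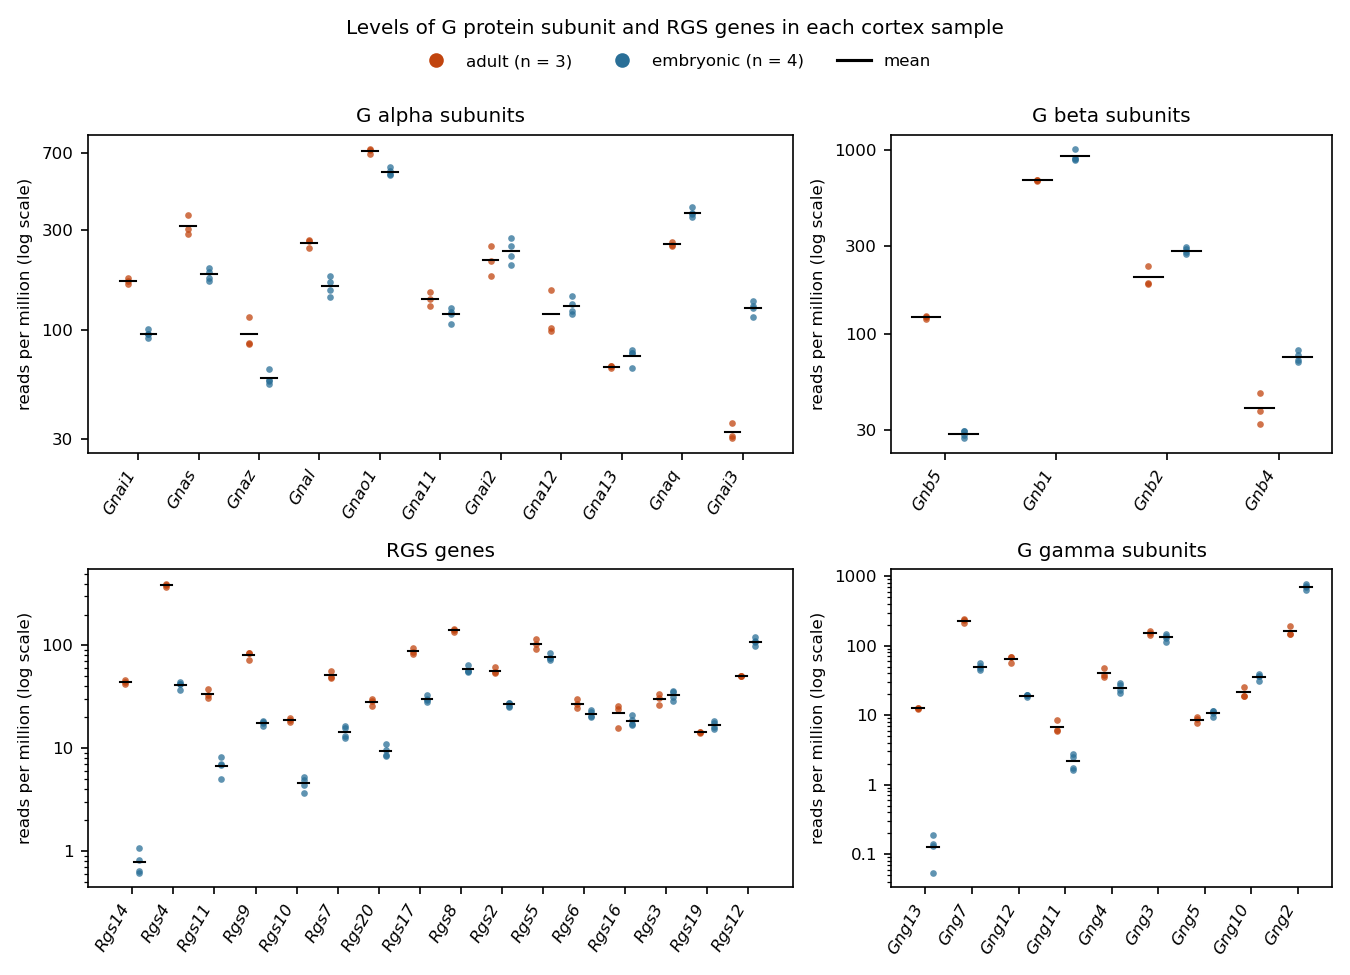
Reads per 1000000 (CPM) in each sample (log scale, y axis) for the 40 members that reached 3 CPM in at least one stage, adult samples left of embryonic samples for each gene and black bars at the means. Gnai3, Gng2 and Rgs12 have all adult points below all embryonic points, and Rgs14, Rgs4, Gnb5 and Gng13 the reverse order.

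Beta subunits form tight dimers with gamma subunits, except that beta 5 pairs with RGS proteins of the R7 family instead. Of 5 beta genes, 1 was higher, 3 were lower and 1 was not called, where 35.8% of all genes were higher and 33.9% lower. Gnb5 had 124, 121 and 126 CPM in adult samples and 28.5, 29.6, 29.6 and 27.2 CPM in embryonic samples, 4.31-fold higher in adult cortex (difference 2.16, SE 0.07, limma adjusted p = 1.14e-11). Gnb5 shares 248 of its 2333 exon bases with Gm19531 on the opposite strand in GENCODE M21. Gm19531 is not among the gene rows used here, and whether counting used strand is not known. The 3 other expressed beta genes were all lower in adult cortex. Gnb1 averaged 685 ± 6.90 CPM in adult and 925 ± 60.03 CPM in embryonic cortex (difference -0.35, SE 0.07, limma adjusted p = 8.37e-04). Gnb2 averaged 204 ± 25.6 CPM in adult and 285 ± 10.6 CPM in embryonic cortex (difference -0.40, SE 0.09, limma adjusted p = 9.78e-04). Gnb4 had 32.5, 47.7 and 38.4 CPM in adult samples and 70.4, 72.2, 77.4 and 82.2 CPM in embryonic samples (difference -0.85, SE 0.11, limma adjusted p = 1.35e-05). None of these 3 overlapped between the stages, and none passed the 2-fold test. Gnb3, the beta subunit of cone photoreceptors, was at 0.364 ± 0.302 CPM in adult and 0.155 ± 0.0233 CPM in embryonic cortex and was not called (difference 0.62, SE 0.38, limma adjusted p = 0.164), although without adult replicate 2 it was called higher (difference 0.99, adjusted p = 0.0377).

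Gamma subunits anchor the dimer in the membrane through a lipid group and contribute to which receptors it serves. Of 10 gamma genes, 7 were higher, 2 lower and 1 was not called, and 5 of those higher and 1 of those lower passed the 2-fold test. Among all genes, 35.8% were higher and 33.9% lower, and 14% and 8.47% passed the 2-fold test as higher and lower. Gng13 reached 12.5 ± 0.194 CPM in adult and 0.128 ± 0.0554 CPM in embryonic cortex (difference 5.24, SE 0.22, limma adjusted p = 8.27e-11), and no fold is given because of the few embryonic reads. In GENCODE M21, 399 of the 773 exon bases of Gng13 are shared with Chtf18 on the opposite strand, which averaged 1.71 ± 0.167 CPM in adult and 6.76 ± 0.965 CPM in embryonic cortex. No source used here says that reads were counted by strand, and reads of the shared bases cannot be told apart. Chtf18 differed in the direction opposite to Gng13. In all, 18 members share exon bases with another gene, 16 of them with a gene on the opposite strand.

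Gng7, which pairs with the Gnal product in striatal neurons, had 214, 231 and 241 CPM in adult samples and 50.3, 44.1, 55.7 and 48.4 CPM in embryonic samples, 4.61-fold higher in adult cortex (difference 2.27, SE 0.09, limma adjusted p = 3.54e-11). The striatal markers given above differed in the same direction, and their part in the difference of Gng7 was not tested. Gng12 averaged 65.0 ± 8.13 CPM in adult and 19.2 ± 0.686 CPM in embryonic cortex, a difference of 1.80. Gng11 averaged 6.85 ± 1.41 CPM in adult and 2.15 ± 0.565 CPM in embryonic cortex, a difference of 1.56. The 6 endothelial markers summed to 205 to 211 CPM in adult and 90.2 to 100.6 CPM in embryonic samples, 4 of 6 were called higher and none was at 0. Flt1 averaged 77.9 ± 3.99 CPM in adult and 20.3 ± 1.21 CPM in embryonic cortex and Slco1a4 47.2 ± 5.20 CPM in adult and 0.169 ± 0.119 CPM in embryonic cortex, while Cldn5 and Cdh5 were not called, and their part in the difference of Gng11 was not tested. Gng8, a gamma subunit of olfactory neurons, had 1.13, 1.82 and 1.28 CPM in adult samples and 0.188 to 0.271 CPM in embryonic samples (difference 1.87, SE 0.25, limma adjusted p = 1.10e-05). Of markers of retina and olfactory epithelium, Opn1sw, Omp and Cnga2 were not called and averaged 0.086 to 0.434 CPM in adult and 0.093 to 0.398 CPM in embryonic cortex, Pde6b had 0.145 ± 0.103 CPM in adult cortex and no reads in embryonic cortex, and Adcy3 was higher. The part of such cells in the differences of Gng8 and Gng13 was not tested.

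Gng2 fell most among the gamma genes, to 161 ± 24.9 CPM in adult cortex against 709 ± 58.9 CPM in embryonic cortex, 4.41-fold lower (difference -2.06, SE 0.10, limma adjusted p = 2.63e-10). Gng2 shares 897 of its 4390 exon bases with Gm48283 on the opposite strand in GENCODE M21. Gm48283 is not among the gene rows used here, and reads of the shared bases cannot be told apart. Gng10 also fell, to 21.2 ± 3.94 CPM in adult cortex against 35.8 ± 3.14 CPM in embryonic cortex (difference -0.66, SE 0.11, limma adjusted p = 1.31e-04). In GENCODE M21, Gng10 shares 946 of its 1192 exon bases with Gm20503 on the same strand, which is not among the gene rows used here, and how reads of the shared bases were assigned is not known. Gng3, a neuronal gamma subunit, had 155, 164 and 140.3 CPM in adult samples and 114, 129, 146 and 136 CPM in embryonic samples. These CPM overlapped between the stages, while the deposited values, which use the authors' own scaling, did not overlap (difference 0.31, SE 0.09, limma adjusted p = 0.00891). Gng3 shares 398 of its 1643 exon bases with Bscl2 on the opposite strand, which averaged 72.2 ± 9.74 CPM in adult and 46.2 ± 0.748 CPM in embryonic cortex, and reads there cannot be told apart. The call of Gng3 was lost with centring on sample medians (adjusted p = 0.236) and without the filter on low values (adjusted p = 0.0604). Gng4 averaged 40.5 ± 6.22 CPM in adult and 25.0 ± 3.48 CPM in embryonic cortex, a difference of 0.76. Gng5, at 8.64 ± 0.776 CPM in adult and 10.8 ± 0.997 CPM in embryonic cortex, was not called in the main fit. It was called lower with centring (adjusted p = 0.00464), voom (0.0285), log2(CPM + 1) (0.0372) and log2(CPM + 0.5) (0.0346). The same held without embryonic replicate 3 (adjusted p = 0.0412).

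Levels of different genes were set beside each other only per length, as reads per kilobase per 1000000 reads. The length was the union of all protein-coding exons of a gene, which can exceed that of the transcripts present. The order of genes depends on this length, and the SD between samples does not cover it. On this per-length scale the largest part of the gamma total was Gng3 in adult cortex and Gng2 in embryonic cortex. Gng3 made up 35.4 ± 1.35% of the summed gamma level in adult and 26.3 ± 1.83% in embryonic cortex. Gng7 made up 23.1 ± 2.34% in adult and 4.33 ± 0.370% in embryonic cortex, and Gng2 13.9 ± 1.89% in adult and 53.3 ± 2.57% in embryonic cortex. No adult share of these 3 genes overlapped an embryonic one. Among beta genes, Gnb1 had the largest share at both stages, 59.6 ± 1.58% in adult and 67.4 ± 0.997% in embryonic cortex, and Gnb5 made up 16.0 ± 0.786% in adult and 3.12 ± 0.125% in embryonic cortex. Among alpha genes, Gnai2 made up 19.9 ± 1.68% in adult and 23.0 ± 2.23% in embryonic cortex, Gnao1 18.1 ± 1.23% in adult and 15.0 ± 0.553% in embryonic cortex, and Gnai3 2.22 ± 0.0928% in adult and 9.06 ± 0.805% in embryonic cortex. Gnai2 and Gnao1 lie close enough in adult cortex that their order does not exceed the spread. Their order at both stages also depends on the lengths used, 2403 bases for Gnai2 and 8840 bases for Gnao1.

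**Figure D3:**
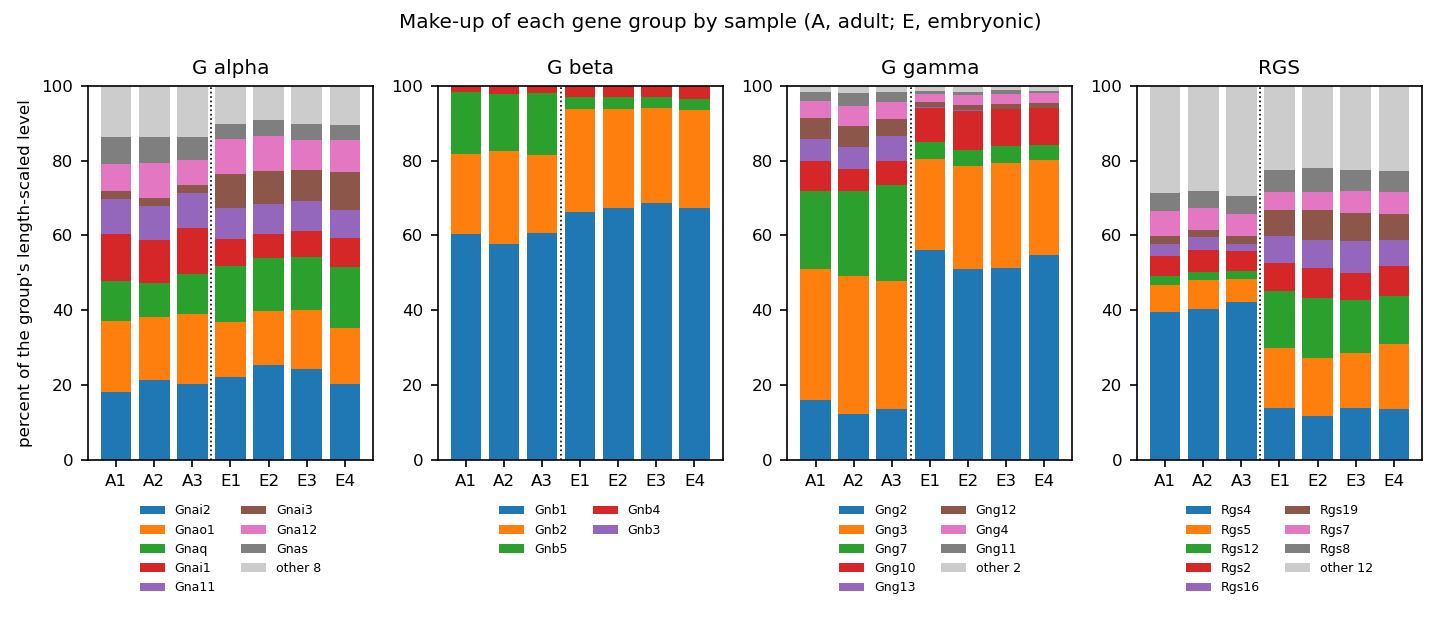
Share of each gene in the summed length-scaled level of its group (percent, y axis) in adult samples A1 to A3 and embryonic samples E1 to E4. The gamma panel shows Gng2 at 13.9% in adult and 53.3% in embryonic cortex, and the RGS panel Rgs4 at 40.7% in adult and 13.2% in embryonic cortex.

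Summed over each group, the per-length level hardly differed between stages for alpha genes, at 415 to 489 in adult and 418 to 452 in embryonic samples, ranges that overlap. The beta sum was 323 to 342 in adult and 382 to 425 in embryonic samples, and the gamma sum 248 to 269.7 in adult and 284 to 325 in embryonic samples. Neither of these pairs overlapped, and both sums were lower in adult cortex. The RGS sum was 315 to 328 in adult and 103 to 108 in embryonic samples, 3.02-fold higher in adult cortex. Of the 4 sums, the RGS sum thus had the widest gap between the stages relative to the spread between samples.

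RGS genes were the most one-sided group, with 15 of 20 higher, 1 lower and 4 not called. Over all genes tested, 35.8% were higher and 33.9% lower. With a filter of 1 CPM in at least 3 samples, 12 RGS genes were higher and 1 lower. The R7 family, which is stable only as a dimer with beta 5, rose as a whole, with 4 of 4 genes higher. Rgs9, known from striatum and retina, had 71.7, 84.6 and 83.8 CPM in adult samples and 17.5, 18.6, 18.0 and 16.4 CPM in embryonic samples (difference 2.22, SE 0.09, limma adjusted p = 6.16e-11). Rgs11 had 30.8, 33.0 and 37.5 CPM in adult samples and 6.99, 5.05, 8.23 and 6.93 CPM in embryonic samples (difference 2.29, SE 0.14, limma adjusted p = 3.21e-09). Both were over 4-fold higher in adult cortex with no overlap, 4.55-fold for Rgs9 and 4.97-fold for Rgs11. The same striatal markers as for Gnal and Gng7 accompanied Rgs9, and their part in its difference was not tested. Rgs11 shares 138 exon bases with Arhgdig on the opposite strand, which averaged 49.1 ± 4.24 CPM in adult and 14.4 ± 3.58 CPM in embryonic cortex, so reads there cannot be told apart.

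Rgs7, an R7 protein found through much of the brain, averaged 51.3 ± 4.15 CPM in adult and 14.5 ± 1.89 CPM in embryonic cortex, a difference of 1.85. Rgs6 changed least, at 27.2 ± 2.86 CPM in adult and 21.7 ± 1.71 CPM in embryonic cortex (difference 0.39, SE 0.10, limma adjusted p = 0.00312), and its call was lost on centring (adjusted p = 0.0684). The anchors of the R7 dimer were part of a list of 21 other regulators. Gpr158, an orphan receptor that binds Rgs7, had the largest increase of that list, at 189 ± 20.4 CPM in adult and 6.22 ± 1.71 CPM in embryonic cortex (difference 4.88, SE 0.15, limma adjusted p = 2.93e-12). Rgs7bp, the membrane anchor of R7 dimers in neurons, averaged 264 ± 31.8 CPM in adult and 19.8 ± 2.52 CPM in embryonic cortex (difference 3.77, SE 0.10, limma adjusted p = 1.56e-12). Rgs9bp, the anchor used in photoreceptors, went the other way, at 0.319 ± 0.113 CPM in adult and 3.07 ± 0.553 CPM in embryonic cortex (difference -2.46, SE 0.21, limma adjusted p = 1.58e-07).

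**Figure D4:**
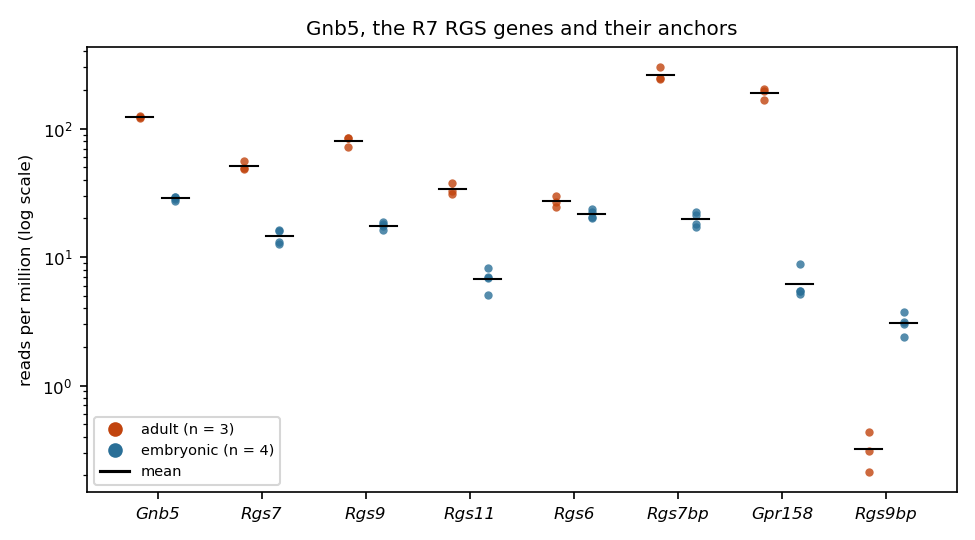
Reads per 1000000 (CPM) in each sample (log scale, y axis) for Gnb5, the R7 genes Rgs7, Rgs9, Rgs11 and Rgs6, and the anchors Rgs7bp, Gpr158 and Rgs9bp, adult left of embryonic. Rgs9bp is the only one of the 8 genes with all adult points below all embryonic points.

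The R4 family holds small RGS proteins with little beyond the RGS domain, and 6 of its 9 genes were higher and none lower. Of all genes, 35.8% were called higher and 33.9% lower. The 66.7% of R4 genes called lay close to the 69.7% called over all genes. The 6 include Rgs1 and Rgs18, which had very few reads. Rgs4 averaged 385 ± 16.7 CPM in adult and 41.4 ± 2.96 CPM in embryonic cortex, 9.31-fold higher in adult cortex (difference 3.28, SE 0.08, limma adjusted p = 4.64e-13). It had the highest level per length of the RGS genes in adult cortex, where it made up 40.7 ± 1.29% of the group's sum, against 13.2 ± 0.971% in embryonic cortex. In embryonic cortex Rgs5 came first with 15.9 ± 1.11% and Rgs12 had 14.6 ± 1.28%, while in adult cortex Rgs5 made up 7.04 ± 0.732% and Rgs12 2.26 ± 0.0503%. In the embryonic order of Rgs5, Rgs12 and Rgs4, neighbouring genes do not differ beyond their spread. Rgs8 averaged 141 ± 4.65 CPM in adult and 58.5 ± 3.77 CPM in embryonic cortex (difference 1.34), and Rgs2, which prefers Gq, 56.9 ± 4.64 CPM in adult and 26.7 ± 1.21 CPM in embryonic cortex (difference 1.15).

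Rgs5, a marker of pericytes, had 103, 115 and 91.5 CPM in adult samples and 75.3, 75.8, 72.6 and 84.5 CPM in embryonic samples (difference 0.49, SE 0.09, limma adjusted p = 2.01e-04). The 8 pericyte and smooth muscle markers summed to 156 to 168 CPM in adult and 104 to 129 CPM in embryonic samples, with 5 called higher, 3 lower and none at 0, and their part in the difference of Rgs5 was not tested. Rgs1 and Rgs18, known from lymphocytes and platelets, were called higher on very few reads, and the part of the blood cell markers given above in these differences was not tested. Both passed the filter on low values through their adult reads and 1 embryonic read each. Rgs1 had 2, 4 and 3 reads in adult samples and 0, 0, 1 and 0 reads in embryonic samples (limma adjusted p = 0.0107). Rgs18 had 3, 4 and 1 reads in adult samples and 0, 1, 0 and 0 reads in embryonic samples (limma adjusted p = 0.0202). The call of Rgs1 was lost without adult replicate 2 (adjusted p = 0.0519), and that of Rgs18 without adult replicate 1 (adjusted p = 0.0687) or adult replicate 2 (adjusted p = 0.0945). The remaining R4 genes, Rgs3, Rgs13 and Rgs16, were not called. Rgs3 averaged 30.3 ± 3.62 CPM in adult and 32.9 ± 3.54 CPM in embryonic cortex, and Rgs13 0.174 ± 0.158 CPM in adult and 0.0835 ± 0.0688 CPM in embryonic cortex. Rgs16 had 23.9, 26.1 and 15.9 CPM in adult samples and 17.1 to 21.2 CPM in embryonic samples, and it was called higher without adult replicate 3 (difference 0.49, adjusted p = 0.0022).

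The R12 family held both the largest increase and the one decrease called in the main fit among RGS genes. Rgs14, known from hippocampal area CA2 and able to bind Ras and inhibitory alpha subunits besides its RGS activity, had 45.8, 42.4 and 44.4 CPM in adult samples and 0.813, 0.620, 1.08 and 0.647 CPM in embryonic samples. It was 55.9-fold higher in adult cortex (difference 5.29, SE 0.15, limma adjusted p = 2.17e-12). Rgs12, its relative with the same RGS, Ras-binding and GoLoco domains and further domains of its own, had 51.0, 50.8 and 51.0 CPM in adult samples and 111, 120.2, 107 and 98.1 CPM in embryonic samples, 2.14-fold lower in adult cortex (difference -0.999, SE 0.08, limma adjusted p = 8.43e-08). The pair of relatives moved in opposite directions, and neither overlapped between the stages. Rgs10, a small RGS protein known from microglia and neurons, had 18.2, 18.9 and 19.8 CPM in adult samples and 3.69 to 5.32 CPM in embryonic samples (difference 1.999, SE 0.12, limma adjusted p = 3.98e-09). The 6 microglial markers summed to 241 to 252 CPM in adult and 21.3 to 26.1 CPM in embryonic samples, all 6 were higher and none was at 0, and their part in the difference of Rgs10 was not tested.

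In the RZ family, whose members carry a cysteine string and act on Gz, 2 of 3 genes were higher. Of all genes, 35.8% were called higher and 33.9% lower. Rgs17 averaged 88.1 ± 6.81 CPM in adult and 30.3 ± 2.005 CPM in embryonic cortex (difference 1.598), and Rgs20 28.4 ± 2.48 CPM in adult and 9.46 ± 1.20 CPM in embryonic cortex (difference 1.599). Of its 2514 exon bases, Rgs20 shares 127 with Atp6v1h on the opposite strand. Atp6v1h averaged 135 ± 8.42 CPM in adult and 87.8 ± 4.79 CPM in embryonic cortex, and reads there cannot be told apart. Rgs19 was not called in the main fit, at 14.3 ± 0.197 CPM in adult and 16.9 ± 1.42 CPM in embryonic cortex. Its adult values nevertheless all lay below its embryonic values, and it was called lower with centring (limma adjusted p = 0.0082) and voom (0.047). Rgs22, which belongs to no such family, had 1.61, 0.720 and 0.968 CPM in adult samples and 0.163 to 0.277 CPM in embryonic samples (difference 1.71, SE 0.29, limma adjusted p = 1.03e-04).

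The effectors and other regulators of the pathway were read from lists in the same fit. Of 20 effectors, 15 were higher, 2 lower and 3 not called, with a median difference of 1.46. Over all genes tested, 35.8% were higher and 33.9% lower, or 69.7% in either direction, with a median difference of 0.03. The largest increases were in subunits of the potassium channel that beta-gamma dimers open. Kcnj9 averaged 153 ± 11.1 CPM in adult and 5.64 ± 1.24 CPM in embryonic cortex (difference 4.69, SE 0.13, limma adjusted p = 1.75e-12), and Kcnj6 27.1 ± 3.18 CPM in adult and 2.29 ± 0.329 CPM in embryonic cortex (difference 3.35, SE 0.13, limma adjusted p = 3.57e-11). Both lower effectors were Arhgef1, a guanine nucleotide exchange factor under G12 and G13, and Adcy6, an adenylyl cyclase. Arhgef1 averaged 52.3 ± 2.41 CPM in adult and 132 ± 6.81 CPM in embryonic cortex (difference -1.23, SE 0.08, limma adjusted p = 4.24e-09), and Adcy6 62.6 ± 6.04 CPM in adult and 102.6 ± 6.60 CPM in embryonic cortex (difference -0.62, SE 0.09, limma adjusted p = 1.93e-05). Kcnj5, Arhgef11 and Arhgef12 were not called.

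Of the 21 other regulators, 19 were tested, and 9 were higher, 7 lower and 3 not called, with a median difference of 0.29. The same shares of all genes apply here, 35.8% higher and 33.9% lower. Beside Rgs9bp, the largest decrease was in Gpsm1, which holds inhibitory alpha subunits in their GDP form and is known from spindle orientation in dividing cells. Gpsm1 averaged 46.5 ± 4.27 CPM in adult and 156 ± 5.62 CPM in embryonic cortex (difference -1.64, SE 0.08, limma adjusted p = 4.26e-10). All 5 called progenitor markers were lower in adult cortex as well, and their part in the difference of Gpsm1 was not tested. Pdc and Gngt1, the retinal phosducin and gamma subunit, had no reads in any sample.

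The exon table held 237 exons of 30 members among its 86425 exons. Its header calls the values 1 over a ratio. Reading that ratio as exon reads over gene reads is an inference from the values and not a statement of the submitters, so the shares and exon read numbers below are estimates. The estimated shares of a gene's exons need not sum to 100%. Over genes with at least 5 exons their sum had a median of 1.18 to 1.21 times the gene per sample, and in Gnas the sum was 536.4 to 657%, so its shares serve only to compare the stages. diffSplice sets the difference of each exon against that of the other exons of its gene, so an exon can be called although its own share overlaps between the stages. Of the 237 exons, 10 (4.22%) in 7 genes were called, 5 with a larger and 5 with a smaller estimated share in adult cortex (limma diffSplice, adjusted p under 0.05). Over all exons tested, 4.86% were called, 2.68% with a larger and 2.17% with a smaller share in adult cortex, so the members were close to the background. Of the 10 exons, 7 were the first or second of their gene among the exons listed, in the direction of transcription, a feature noted after the values were seen. Such positions made up 25.3% of all member exons, and over genes with a strand in GENCODE M21 they made up 36.3% of 3836 called exons and 16.7% of 79352 exons. Start positions below are on mm9, the build of the files, and shares are coarse because each is 100 divided by a whole number.

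Gnas, a locus with several alternative first exons, had the exon with the smallest adjusted p. Its sixth listed exon, starting at position 174163122 of chromosome 2, took 11.1, 11.1 and 14.3% of the gene's reads in adult samples and 4.76, 5, 5.88 and 6.67% in embryonic samples (diffSplice adjusted p = 1.30e-12). All 3 adult shares were above all 4 embryonic shares. The first listed exon of Gnas, at 174123360, took 0.0832 ± 0.0506% in adult and 0.381 ± 0.0885% in embryonic cortex (diffSplice adjusted p = 2.96e-09), on an estimated 2 to 11 reads in adult and 11 to 23 reads in embryonic samples. Gnas shares 988 exon bases with the antisense gene Nespas in GENCODE M21, which averaged 0.116 ± 0.0509 CPM in adult and 1.02 ± 0.370 CPM in embryonic cortex, and its part in these shares was not tested.

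Rgs12, the one RGS gene called lower in the main fit, also had a smaller share of reads at its start. Its first listed exon, at position 35307422 of chromosome 5, took 11.1, 12.5 and 11.1% of the gene's reads in adult samples and 33.3% in every embryonic sample (diffSplice adjusted p = 3.58e-05). The equal embryonic shares come from the coarse scale, and the exon held an estimated 129 to 150 reads in adult and 684 to 904 reads in embryonic samples. The second listed exon, at 35317866, took 0.964 ± 0.359% in adult and 1.97 ± 0.246% in embryonic cortex (diffSplice adjusted p = 1.66e-04). Both exons had no overlap between the stages and moved in the same direction. Rgs12 shares 467 exon bases with the antisense gene Gm43791 in GENCODE M21, which is not among the gene rows used here. The part of Gm43791 in these shares was not tested.

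Gnal had opposite changes in its first exons. The first listed exon, at position 67247990 of chromosome 18, took 2.90 ± 0.667% in adult and 4.44 ± 0.564% in embryonic cortex (diffSplice adjusted p = 0.00103), and the second, at 67293480, took 3.27 ± 0.165% in adult and 1.53 ± 0.176% in embryonic cortex (diffSplice adjusted p = 7.98e-09). The second exon held an estimated 175 to 216 reads in adult and 49 to 56 reads in embryonic samples. The first listed exon of Gnb1, at position 154865470 of chromosome 4, took 2.08, 3.85 and 2% in adult samples and 1.45 to 1.79% in embryonic samples (diffSplice adjusted p = 0.0013), with adult replicate 2 highest. The first listed exon of Gnao1, at position 96334738 of chromosome 8, took 10.9 ± 1.71% in adult and 8.20 ± 0.665% in embryonic cortex (diffSplice adjusted p = 0.00239), and 1 adult share equalled the highest embryonic one. The eighth listed exon of Gnb5 on chromosome 9 and the last listed exon of Rgs7 on chromosome 1 had the largest adjusted p of the 10, 0.0133 and 0.0467, the Gnb5 shares overlapped between the stages, and the Rgs7 exon held an estimated 2 to 8 reads in embryonic samples. Without adult replicate 2, the number of member exons with a larger share was 3 in place of 5.

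**Figure D5:**
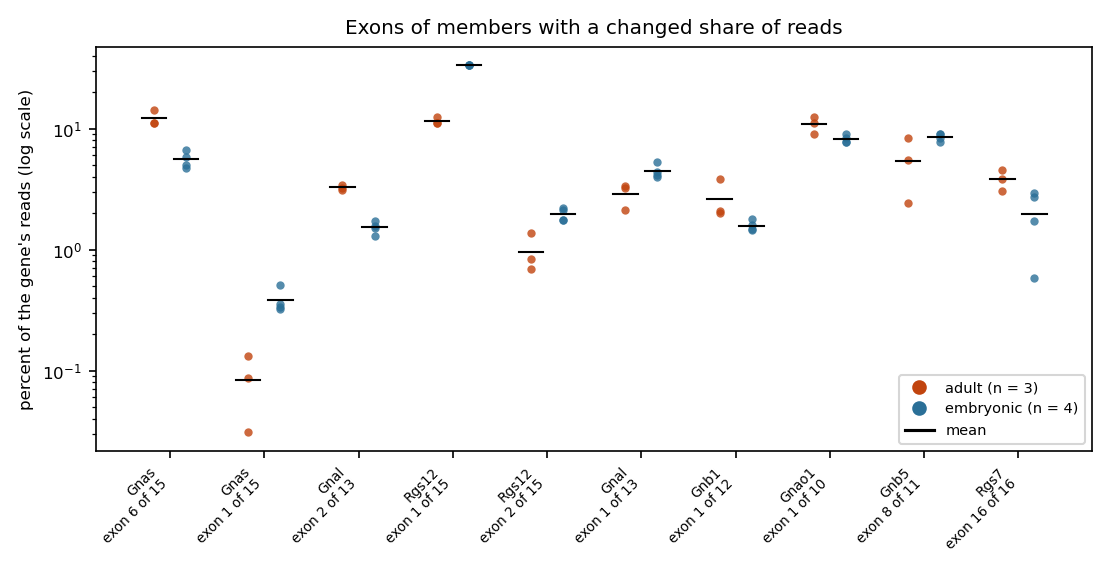
Percent of the gene's reads in each of the 10 member exons that were called (estimated share, log scale, y axis), adult left of embryonic, black bars at the means. The first listed exon of Rgs12 lies at 11.6% in adult and 33.3% in embryonic cortex, the widest gap in percentage points of the 10.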

How the data were processed

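RNA extracted with trizol was sequenced with an Illumina mRNA kit, per the labels' protocols. The submitters' processing notes list, with no role or order, the mm9 build, HTSeq 0.5.3p3, SAMtools 0.1.7a, Bowtie 0.12.7.0, TopHat 1.0.13 and CASAVA 1.7.1. The authors deposited a variance-stabilized, log2-like value for each gene, and exon values as a variance-stabilized score of 1 over a ratio, per the file headers. The tool that made them, and whether counting used strand, are not given in the sources used here.

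Whole read counts were recovered from the deposited log2-like values, since each column steps through 1 smooth function of whole numbers. Of the values above the steps that were assigned in order, 99.8 to 99.93% came within 0.1 of a whole number. CPM and reads per kilobase (union of GENCODE M21 protein-coding exons, GRCm38) describe levels only. They use total reads, which differ from the authors' scaling, so the CPM ratio and the difference of a gene can differ slightly. Exon shares, an inferred reading of the exon table, are 100 divided by the whole number recovered from the deposited score, with 0 taken as 1.

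Tests ran on the deposited values of the whole tables in limma 3.58.1 under R 4.3.3 (lmFit, eBayes with a trend, 3 adult against 4 embryonic samples, no covariate), and diffSplice for exons, two-sided with Benjamini-Hochberg adjustment at 0.05. A row was dropped where more than 3 of the 7 samples sat at their column's lowest value. This filter keeps a gene without reads in all adult samples and leaves out one without reads in all embryonic samples. The fits were tested on simulated data. Pairs of samples within a stage gave chi-square values of 4.83 to 17.7 per degree of freedom, so no sample was a copy of another. Counting intervals would cover reads, not molecules. Members and lists were chosen with earlier results of these data known. All members are accounted for, with full statistics for the called ones with the largest difference in each direction and group, all beta genes, the gene of highest level in each group, and the 2 largest pathway differences in each direction and list. Alternatives were no filter or a stricter one, no trend or a robust prior, centring on sample medians, voom and log2(CPM + 1) or log2(CPM + 0.5) on recovered counts, each sample left out, and the replicate number as a block. Markers of astrocytes (1276 to 1406 CPM in adult, 194 to 201 CPM in embryonic samples), thalamus (239.9 to 389 CPM in adult, 102 to 114 CPM in embryonic samples) and choroid plexus (589.6 to 727 CPM in adult, 1.63 to 3.37 CPM in embryonic samples) were also summed. Some markers are not reported here.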

Additional observations from a re-analysis of the deposited data

Results flagged for a closer look

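In 3 of the 50 tested members, 1 of the 4 embryonic samples stood apart from the other 3 by Dixon's criterion, which chance alone gives in about 1 in 20 groups. Rgs8 had its highest embryonic value in replicate 2, at -2.722 on the deposited scale with 1447 reads, while the other 3 embryonic samples lay between -2.917 and -2.885. All 4 remained far below the adult samples, which had 136 to 145 CPM against 55.8 to 64.1 CPM in embryonic samples. Rgs1 in embryonic replicate 3 (-10.79) and Rgs18 in embryonic replicate 2 (-10.83) stood apart because each had 1 read where the other 3 embryonic samples had none.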

How the results depend on the processing

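No member's call changed with eBayes without a trend or with a robust prior. Centring every sample on its median moved the median of all genes by -0.182 and gave 5 lower alpha genes in place of 2 and 2 lower RGS genes in place of 1, with Gna13, Gnat1, Gnat2, Gng5 and Rgs19 newly called lower and Gna11, Gng3 and Rgs6 no longer called. Lower alpha genes numbered 4 with log2(CPM + 1) and 4 with log2(CPM + 0.5), and lower RGS genes 2 with voom. With centring, voom, log2(CPM + 1) and log2(CPM + 0.5), lower gamma genes numbered 3 in place of 2, through Gng5. Rgs18 was no longer called with log2(CPM + 1) (adjusted p = 0.0505). Against a null of 2-fold, 3203 of all genes were higher and 1933 lower, with 1 alpha and 9 RGS genes higher and 1 alpha, 0 beta, 1 gamma and 0 RGS genes lower. Leaving out 1 sample gave 2 to 4 lower alpha genes, 1 to 2 higher beta genes, 3 to 7 member exons with a larger share, and 13 to 16 higher RGS genes, and adult replicate 2 gave the outer value for alpha and beta. The sign turned in 3 genes that are not called with all samples. With 1 sample left out, Gnai2 ran from -0.194 (without adult replicate 2) to 0.056 (without adult replicate 1) and was 0.0042 without embryonic replicate 2, Gna12 ran from -0.282 (without adult replicate 2) to 0.046 (without adult replicate 3) and was 0.022 without adult replicate 1, and Rgs3 ran from -0.102 (without adult replicate 1) to 0.063 (without adult replicate 3) and was 0.018 and 0.0012 without embryonic replicates 1 and 2. The cause was not tested. Samples of the same number correlated by 0.00879 to 0.0567 in their deviations and samples of different number by -0.0475 to 0.0617. The value of 0.0617 was adult replicate 1 with embryonic replicate 4, and all other pairs of different number were negative. So few pairs cannot show whether samples of the same number belong together. With the replicate block 8006 genes were higher and 7549 lower, with Gnat1 newly called lower (adjusted p = 0.0476). Rgs1, Rgs18, Gnat1 and Gnb3 had only 0 to 16 reads per sample.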
